A study of Mus musculus with 36 samples.

Results

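The genes of glucose uptake and glycolysis were followed in mouse embryonic stem cells (mESCs) grown on substrates of different stiffness. The members were chosen by role in the pathway: 2 glucose transporters, 6 genes of the hexose steps, 4 genes that set the level of the bisphosphate that activates phosphofructokinase, 4 genes of the aldolase and triose steps, 8 genes of the ATP-yielding lower pathway from Gapdh to Pkm, 4 genes of lactate formation and export, and 4 genes of the pyruvate dehydrogenase (PDH) step. These 32 genes were taken from 49671 genes in the count table, and all 32 were among the 17702 genes with enough counts to be tested. Their reads made up between 1.20% and 1.48% of each library.

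RNA sequencing was done on 36 libraries in 11 groups. All cells were mESCs whose strain and genotype the labels give as 129m wt in every group. They grew on plastic or on StemBond hydrogels of 2 kinds, soft and stiff, whose polyacrylamide network carries a co-factor that tethers extracellular matrix firmly. Hydrogels and plastic were coated with fibronectin. Soft and stiff groups were collected at 24 h in serum + LIF. At 48 h they were collected in serum alone or with LIF (serum + LIF), with PD03 (serum + PD03) or with both (serum + LIF + PD03), and the plastic group was collected at 48 h in serum + LIF. LIF is the cytokine that sustains mESC self-renewal through STAT3, and PD03 is an inhibitor of the kinase MEK, which activates ERK. Every group had 3 libraries except soft serum + PD03, which had 6. The labels do not say that libraries of a group came from separate cultures, so p-values measure only the spread between these libraries, which may be technical. Library numbers below are names only.

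Glycolysis splits glucose into pyruvate with a net gain of ATP and NADH. Pyruvate is then either reduced to lactate by lactate dehydrogenase (LDH), which regenerates the NAD that glycolysis needs, or carried into the mitochondrion and oxidised by the PDH complex, which PDH kinases switch off by phosphorylation. Mouse ESCs use both routes, and the balance between them is known to shift as cells leave the naïve state. Many of these genes are textbook targets of HIF and MYC.

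Libraries held between 10405696 and 26635239 counts. Levels are given as CPM, which is a gene's count after scaling all libraries to a common size, with the size corrected for library composition by TMM. A gene is called changed where the edgeR quasi-likelihood test gave an adjusted p under 0.05 over all 17702 genes. Pluripotency markers summed to between 2630 and 4442 CPM in every library, and the fibroblast markers to between 25.2 and 99.4 CPM, with Col1a1 at 9.75 to 79.2 CPM and the median of Lum at 0. The libraries were run in 3 sequencing pools, and these followed the groups closely. All 24 h and plastic libraries were in the first pool. At 48 h the stiff libraries were in the second pool, except 1 of 3 in serum + LIF, which was in the first, and the soft libraries were in the third, except 2 of 6 in serum + PD03, which were in the second. The count table does not show which of its columns those single libraries are, so fits with a pool term were made for all 45 possible assignments. In a bulk sample, fewer cells of a type and less RNA per cell cannot be told apart.

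Gene levels spanned a wide range when put on a per-length scale (CPM per kb of exons). Gapdh, the dehydrogenase that makes NADH, stood highest at a mean of 869 CPM per kb over the 11 groups. Aldoa, the aldolase that splits the 6-carbon sugar, followed at 463, Pkm, the pyruvate kinase, at 419, and Ldha and the enolase Eno1 both at 249. Of the transporters, Slc2a1 (GLUT1) stood at 152 and Slc2a3 (GLUT3) at 77.8 CPM per kb. Hk2 at 50.3 was the leading hexokinase over Hk1 at 8.07. The lowest were Eno2, Pfkfb4 and Pfkfb2 at 0.336, 0.368 and 0.430 CPM per kb. Some members varied little between groups and others several-fold. The highest group mean was 1.23 times the lowest for Gapdh, 1.11 times for Hk2 and 1.10 times for Bpgm. It was 13.4 times the lowest for the PDH kinase Pdk1, 4.08 times for Hk1, 3.51 times for the enolase Eno3, 3.10 times for Ldhb and 3.08 times for the lactate exporter Slc16a3.

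**Figure D1:**
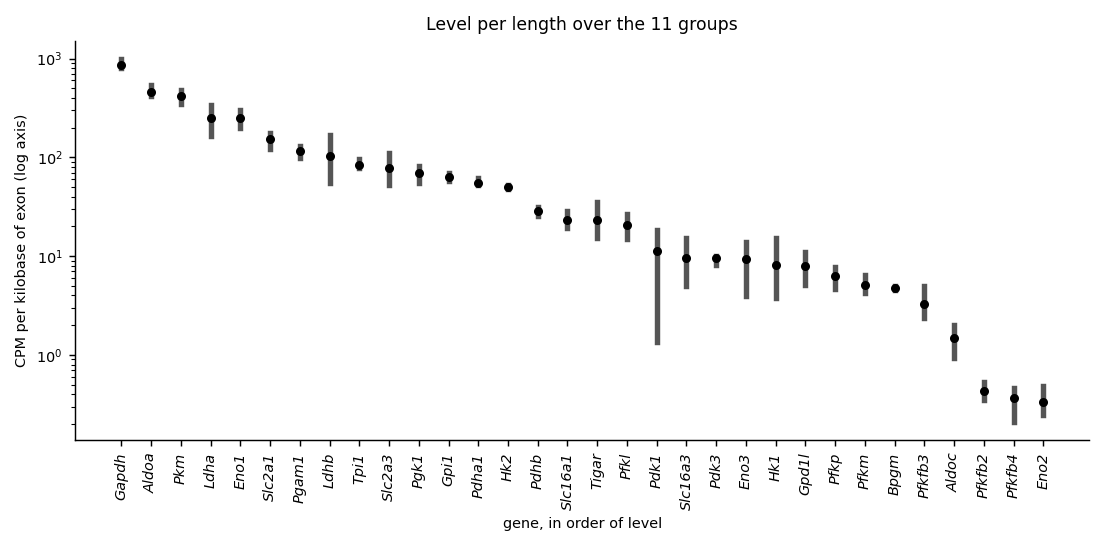
Level of each of the 32 genes in CPM per kb of exon length on a log axis, ordered by mean. Bars span the lowest to the highest of the 11 group means and dots mark their mean. Pdk1 has the widest bar, from 1.36 to 18.3 CPM per kb, while Gapdh stays between 810 and 993.

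The start-site windows of the 4 genes below are shown because these genes changed most at the pyruvate branch and differ in the letters they hold. Windows run from 250 bases before to 50 bases after a RefSeq start, on build GRCm38.p6. Pdk1 and Ldha each had 2 windows, of which only the first is shown and counted, and Slc16a3 and Ldhb had 1. Capitals mark ACGTG and GCGTG, the cores of the HIF element, on either strand. A CACGTG, the E-box that MYC and related factors bind, reads as ACGTG on both strands and counts as a pair of ACGTG. The window of Pdk1 was chr2:71872974-71873273 on the + strand, of Ldha chr7:46845554-46845853 on the + strand, of Slc16a3 chr11:120948817-120949116 on the + strand, and of Ldhb chr6:142507908-142508207 on the - strand.
Pdk1: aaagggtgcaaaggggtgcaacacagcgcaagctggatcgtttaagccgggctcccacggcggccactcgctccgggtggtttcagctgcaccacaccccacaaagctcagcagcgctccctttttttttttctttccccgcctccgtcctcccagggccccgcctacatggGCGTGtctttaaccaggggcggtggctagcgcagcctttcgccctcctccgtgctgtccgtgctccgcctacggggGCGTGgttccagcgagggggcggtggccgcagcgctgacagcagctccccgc
Ldha: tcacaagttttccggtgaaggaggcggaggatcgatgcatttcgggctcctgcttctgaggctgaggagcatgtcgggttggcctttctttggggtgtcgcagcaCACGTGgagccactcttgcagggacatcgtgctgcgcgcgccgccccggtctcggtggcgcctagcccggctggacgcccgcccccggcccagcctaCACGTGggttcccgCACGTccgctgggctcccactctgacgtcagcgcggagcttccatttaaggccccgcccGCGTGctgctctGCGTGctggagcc
Slc16a3: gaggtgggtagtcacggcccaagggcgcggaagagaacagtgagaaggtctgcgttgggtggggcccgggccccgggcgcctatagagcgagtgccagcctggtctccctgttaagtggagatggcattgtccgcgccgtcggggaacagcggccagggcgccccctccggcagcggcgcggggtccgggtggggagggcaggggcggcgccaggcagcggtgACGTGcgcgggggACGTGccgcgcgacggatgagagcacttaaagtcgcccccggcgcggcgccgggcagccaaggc
Ldhb: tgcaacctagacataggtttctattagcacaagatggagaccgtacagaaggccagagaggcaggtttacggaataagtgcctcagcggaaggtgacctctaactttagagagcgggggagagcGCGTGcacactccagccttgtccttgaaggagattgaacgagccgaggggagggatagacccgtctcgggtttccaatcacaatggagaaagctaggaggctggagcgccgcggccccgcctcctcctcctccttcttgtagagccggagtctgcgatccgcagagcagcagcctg
Pdk1 held 2 GCGTG and no ACGTG. Ldha held 5 ACGTG readings, among them 2 CACGTG, and 2 GCGTG. Slc16a3 held 2 ACGTG and Ldhb 1 GCGTG. Of the 31 members with a window, 48.4% held ACGTG, 58.1% GCGTG and 16.1% CACGTG in their first window, and Slc2a3 had none. Over the first windows of the 11989 tested genes with one, the shares were 24.9%, 50.1% and 9.94%, and over all 32851 windows 19.6%, 32.4% and 7.15%. The median GC content was 62.3% in the members' first windows and 60.7% in those of the tested genes. A match describes letters only and is not evidence of binding.

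MEK inhibition at 48 h moved most of the pathway, in both directions. PD03 lowered Pdk1 between 10.2-fold and 12.5-fold, lowered Ldha, the exporter Slc16a3 and the muscle enolase Eno3, and raised Hk1, Ldhb, Tigar and Slc2a3. On soft substrates 25 of 32 members changed without LIF (13 higher, 12 lower), or 78.1%, against 57.5% of all tested genes (29% higher, 28.5% lower). With LIF 23 changed (10 higher, 13 lower), or 71.9%, against 54.4% (27.8% higher, 26.6% lower). On stiff substrates 21 changed without LIF (8 higher, 13 lower), or 65.6%, against 55.8% (28.4% higher, 27.4% lower). With LIF 22 changed there (9 higher, 13 lower), or 68.8%, against 56.2% (28.3% higher, 27.8% lower). So large a background means that a call alone sets a member little apart. The median log2 fold change of the members was 0.07 and -0.08 on soft and -0.09 and 0.07 on stiff substrates without and with LIF, while the median of all genes was within 0.01 of 0. The median absolute log2 change was 0.29 and 0.43, then 0.40 and 0.29, against 0.39, 0.42, 0.43 and 0.44 over all genes.

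The members that changed in 1 direction in all 4 PD03 comparisons were 6 higher (Slc2a3, Hk1, Pfkp, Tigar, Gpd1l and Ldhb) and 9 lower (Pfkl, Pgk1, Eno1, Eno3, Pkm, Ldha, Slc16a1, Slc16a3 and Pdk1). These were 18.8% and 28.1% of the members, against 21.5% and 19.9% of all tested genes. Bpgm and Eno2 changed in no PD03 comparison. For 11 members the 15 hydrogel libraries with PD03 at 48 h did not overlap the 12 without it. Of these, 5 were higher and 6 lower in every PD03 library, against 17% and 14.8% of all genes. In 2 of the 4 comparisons, soft with LIF and stiff without LIF, both arms were run in 1 pool.

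**Figure D2:**
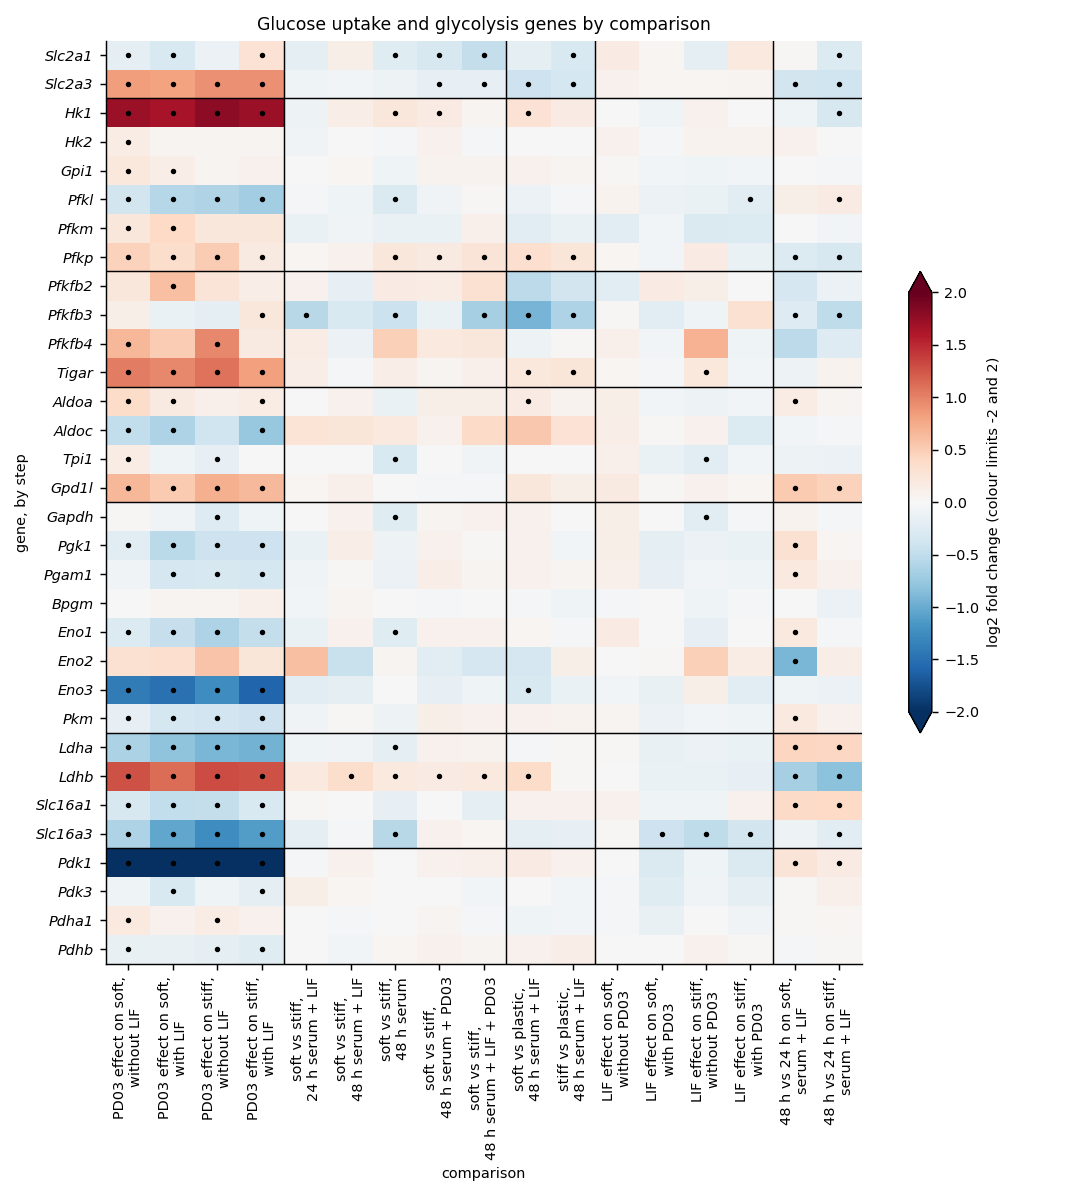
Heat map of the log2 fold change of the 32 genes (rows, by role) in each comparison other than the interactions (columns). Dots mark changes past the threshold, and the colour scale is capped, so the changes of Pdk1 exceed it. The PD03 columns stand apart in Pdk1, Hk1, Ldhb, Eno3, Tigar and Slc2a3, and rows such as Bpgm and Hk2 show little change.

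Of the glucose transporters, Slc2a3 rose with PD03. GLUT3, its product, has a higher affinity for glucose than the widespread GLUT1. On soft substrates, Slc2a3 stood at 367, 410 and 375 CPM in serum and at 651 (lowest), 685 (median) and 728 (highest) in serum + PD03. In the presence of LIF it stood at 383, 436 and 400 CPM without PD03 and at 717, 733 and 671 with it. On stiff substrates it stood at 398, 440 and 394 CPM in serum, 786, 771 and 760 in serum + PD03, 426, 406 and 431 in serum + LIF, and 793, 803 and 798 in serum + LIF + PD03. Every PD03 library was above every library without it. The log2 fold change was 0.84 and 0.80 on soft and 0.91 and 0.92 on stiff substrates, without and with LIF (SE 0.05 in each), with edgeR adjusted p-values between 3.15e-21 and 2.49e-18.

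Slc2a1 did not follow 1 direction. It fell with PD03 on soft substrates, by 0.18 without LIF and by 0.30 with LIF on the log2 scale, rose by 0.29 with LIF on stiff substrates, and gave -0.11 without LIF there (edgeR adjusted p = 0.173). Its libraries stood at 566, 569 and 488 CPM in soft serum + LIF and at 422, 440 and 452 with PD03 added. In stiff serum + LIF they stood at 501, 497 and 501 CPM, and with PD03 added at 648, 603 and 579. On each substrate the groups did not overlap, but in opposite directions. The difference between the substrates, tested as an interaction, was -0.59 ± 0.09 (SE; edgeR adjusted p = 5.49e-05), where 1.07% of all genes passed.

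In the hexose steps Hk1 rose while Hk2 hardly moved. Both phosphorylate glucose on entry, and Hk1 is the isoform found in most tissues. On soft substrates, Hk1 stood at 40.0, 39.6 and 39.5 CPM in serum and at 125 (lowest), 131 (median) and 141 (highest) in serum + PD03, and at 42.5, 36.9 and 38.7 in serum + LIF against 117, 125 and 129 with PD03 added. On stiff substrates it stood at 35.2, 33.8 and 32.6 CPM in serum, 115, 116 and 121 in serum + PD03, 36.5, 34.6 and 36.7 in serum + LIF and 123, 114 and 117 in serum + LIF + PD03. No library with PD03 was below 114 CPM and none without it at 48 h was above 42.5 on hydrogels. The rise was between 3.13-fold and 3.46-fold (log2 1.65 to 1.79, SE 0.05 to 0.06), with a largest edgeR adjusted p of 2.09e-29. Hk2 changed in 1 comparison, soft without LIF, by 0.15, and gave 0.05 to 0.06 in the others.

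The phosphofructokinases split by isoform. Pfkl, the liver-type subunit, stood in serum at 139, 152 and 143 CPM on soft and at 174, 181 and 175 on stiff substrates, and with PD03 at 102 (lowest), 110 (median) and 123 (highest) on soft and at 116, 120 and 113 on stiff. With LIF it stood at 150, 156 and 151 CPM on soft and 166, 160 and 157 on stiff, and with LIF and PD03 at 98.3, 108 and 100 and at 99.1, 102 and 99.0. All PD03 libraries were below all others at 48 h on hydrogels. Pfkl fell by 0.37 and 0.57 on soft and by 0.60 and 0.69 on stiff substrates on the log2 scale, without and with LIF. Pfkp, the platelet-type subunit, rose in all 4 comparisons, by log2 values between 0.18 and 0.50, and the muscle-type Pfkm rose in both comparisons on soft substrates, by 0.22 and 0.40. Gpi1, which interconverts glucose and fructose phosphates, rose on soft substrates, by log2 0.21 without and 0.13 with LIF.

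Among the genes that set the activator of phosphofructokinase, Tigar, a phosphatase that removes it, rose throughout. Tigar stood in serum at 61.0, 65.0 and 63.1 CPM on soft and 58.1, 60.3 and 54.5 on stiff substrates, against 122 (lowest), 126 (median) and 133 (highest) on soft and 126, 118 and 123 on stiff with PD03. Beside LIF the values were 66.7, 63.8 and 63.8 CPM on soft and 66.8, 68.5 and 64.4 on stiff, against 124, 125 and 128 and then 113, 120 and 119 with PD03 added. The ranges with and without PD03 lay far apart, at 113 to 133 and 54.5 to 68.5 CPM. The rise was log2 1.02 and 0.96 on soft and 1.08 and 0.82 on stiff substrates, without and with LIF (SE 0.05 in each). The kinase-phosphatases Pfkfb2, Pfkfb3 and Pfkfb4, which mostly make or remove the same activator, gave few calls. Pfkfb4 rose without LIF, by log2 0.67 ± 0.24 (SE) on soft and 0.96 ± 0.30 on stiff substrates, Pfkfb2 rose by 0.60 ± 0.19 on soft with LIF, and Pfkfb3 by 0.22 ± 0.09 on stiff with LIF. Pfkfb2 and Pfkfb4 were low, with means of 3.12 and 1.80 CPM over the groups.

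In the aldolase and triose steps, Gpd1l, which links triose phosphate to glycerol phosphate, rose. Gpd1l stood in serum at 35.3, 33.5 and 32.3 CPM on soft and 32.1, 37.4 and 31.5 on stiff substrates, and with PD03 at 49.9 (lowest), 53.6 (median) and 57.2 (highest) on soft and 60.0, 52.5 and 51.8 on stiff. In media with LIF it stood at 35.6, 39.4 and 39.7 CPM on soft and 35.8, 36.3 and 35.2 on stiff, and with LIF and PD03 at 58.2, 50.7 and 55.2 and at 53.3, 54.5 and 60.8. All PD03 libraries were higher. The log2 fold changes were 0.67, 0.52, 0.71 and 0.65 on soft without and with LIF and stiff without and with LIF (SE 0.07 to 0.08). Aldoa rose in 3 of the 4 comparisons, by log2 0.36 and 0.18 on soft substrates and 0.15 on stiff with LIF, and gave 0.10 on stiff without LIF. The brain-type aldolase Aldoc, at a mean of 4.81 CPM, fell by 0.49 and 0.61 on soft and by 0.76 on stiff with LIF. Tpi1, which interconverts the triose phosphates, rose by 0.15 on soft and fell by 0.17 on stiff substrates, both without LIF.

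No member of the ATP-yielding lower pathway rose with PD03. Of 8, those that fell numbered 4 on soft without LIF, 5 on soft with LIF, 6 on stiff without LIF and 5 on stiff with LIF. Between 26.6% and 28.5% of all genes were lower in these comparisons. Eno3, the muscle enolase, fell most. It stood in serum at 19.6, 19.6 and 21 CPM on soft and 19.8, 21.6 and 19.2 on stiff substrates, and with PD03 at 6.39 (lowest), 7.76 (median) and 8.07 (highest) on soft and 8.52, 8.80 and 8.03 on stiff. With LIF it stood at 21.1, 18.2 and 18.6 CPM on soft and 22.5, 21.2 and 22.2 on stiff, and with LIF and PD03 at 7.82, 6.73 and 5.94 and at 6.31, 6.74 and 8.65. No PD03 library exceeded 8.80 CPM and no other 48 h hydrogel library was below 18.2. Eno3 fell 2.64-fold and 2.82-fold on soft and 2.38-fold and 3.01-fold on stiff substrates, without and with LIF (log2 SE 0.09 to 0.11). The abundant members fell less. Eno1, the main enolase, fell by 0.28 and 0.46 on soft and 0.61 and 0.47 on stiff substrates on the log2 scale. The phosphoglycerate kinase Pgk1 fell by 0.22, 0.54, 0.41 and 0.42 in the same order, and Pkm by 0.17, 0.35, 0.39 and 0.41. The mutase Pgam1 fell by 0.33 on soft with LIF and by 0.32 and 0.35 on stiff, and Gapdh fell on stiff without LIF, by 0.26, and gave -0.07, -0.08 and 0.03 in the other comparisons.

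At the pyruvate to lactate step the LDH subunits moved in opposite directions. Ldha encodes the subunit that favours lactate formation and Ldhb the one that favours pyruvate. Ldha stood in serum at 950, 1003 and 1006 CPM on soft and 1079, 1229 and 1079 on stiff substrates, and with PD03 at 621 (lowest), 633 (median) and 657 (highest) on soft and 573, 638 and 596 on stiff. With LIF it stood at 988, 1035 and 971 CPM on soft and 1038, 1069 and 1041 on stiff, and with LIF and PD03 at 587, 571 and 563 and at 548, 544 and 546. The PD03 libraries, at 544 to 657 CPM, lay below all other 48 h hydrogel libraries, at 950 to 1229. Ldha fell by 0.63 and 0.80 on soft and by 0.91 and 0.94 on stiff substrates on the log2 scale, without and with LIF (SE 0.04 to 0.05), with a largest edgeR adjusted p of 1.11e-19. Ldhb stood in serum at 108, 109 and 115 CPM on soft and 99.8, 97.1 and 90.6 on stiff, and with PD03 at 245 (lowest), 261 (median) and 299 (highest) on soft and 225, 256 and 227 on stiff. In media with LIF, Ldhb stood at 113, 111 and 110 CPM on soft and 87.3, 91.3 and 83.1 on stiff, and with LIF and PD03 at 231, 236 and 257 and at 212, 209 and 210. The PD03 libraries lay above all others without overlap. Ldhb rose 2.41-fold and 2.17-fold on soft and 2.46-fold and 2.41-fold on stiff substrates, with a largest edgeR adjusted p of 2.10e-21.

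The counts of Ldha divided by those of Ldhb, a ratio used here only to set libraries side by side since it is not corrected for length, put both changes in 1 number. At 48 h without PD03 it was 8.92 ± 0.261 (SD, n = 3) in soft serum, 8.97 ± 0.339 in soft serum + LIF, 11.8 ± 0.923 in stiff serum, 12 ± 0.434 in stiff serum + LIF and 12.1 ± 1.68 on plastic. With PD03 it was between 2.38 and 2.59 in all 4 groups. At 24 h it was 4.22 ± 0.103 on soft and 5.12 ± 0.455 on stiff substrates, between the PD03 and the other 48 h groups. The same kind of ratio of Hk1 to Hk2 was 0.107 to 0.150 in the groups without PD03 and 0.374 to 0.415 with it, and that of Slc2a3 to Slc2a1 was 0.717 to 0.981 and 1.31 to 1.62.

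**Figure D3:**
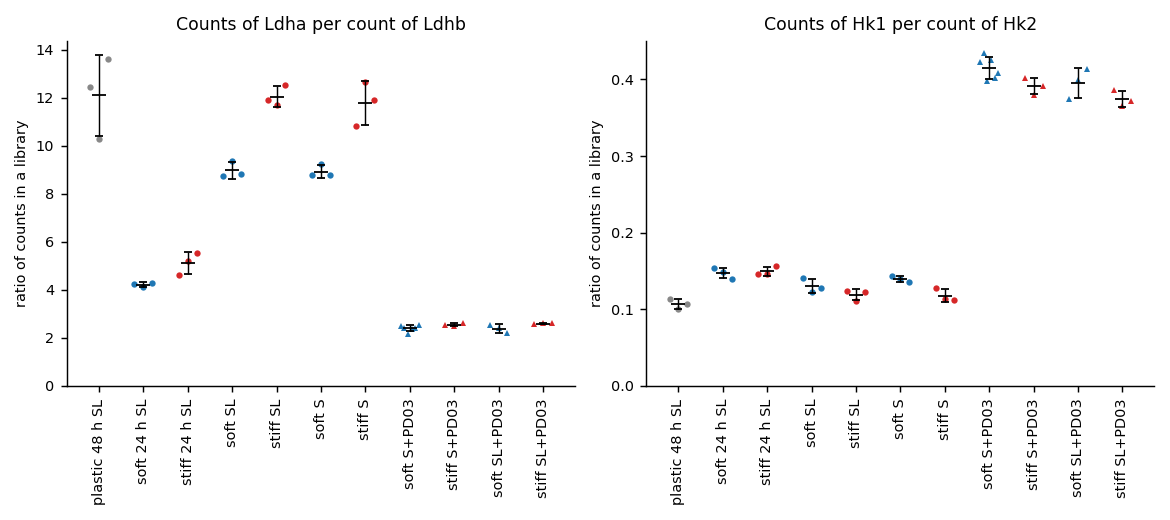
Ratios of the counts of Ldha to Ldhb and of Hk1 to Hk2 in each library (points; blue soft, red stiff, grey plastic, triangles with PD03), by group, on a linear axis from 0, with the mean ± SD as black bars. The Ldha to Ldhb ratio is between 2.38 and 2.59 in the 4 PD03 group means, 4.22 and 5.12 at 24 h, and 8.92 to 12.1 in the other 48 h groups.

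The lactate exporters both fell with PD03. Slc16a3 (MCT4), a transporter typical of strongly glycolytic cells, stood in serum at 50.3, 59.0 and 56.7 CPM on soft and 78.3, 91.9 and 75.4 on stiff substrates, and with PD03 at 33.4 (lowest), 36.4 (median) and 39.5 (highest) on soft and 32.2, 35.6 and 35.5 on stiff. The values with LIF were 56.5, 57.2 and 54.2 CPM on soft and 57.9, 52.9 and 61.2 on stiff, and with LIF and PD03 at 27, 29.8 and 25 and at 25, 26.6 and 28.1. PD03 libraries were lower throughout, and the stiff serum group was the highest of all 11. Slc16a3 fell by 0.61 and 1.04 on soft and by 1.24 and 1.11 on stiff substrates on the log2 scale, without and with LIF (SE 0.07 to 0.08). Slc16a1 (MCT1) fell by 0.32, 0.49, 0.47 and 0.30 in the same order.

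Pdk1 gave the largest change of any member. This kinase inactivates PDH and so limits the oxidation of pyruvate. Pdk1 stood in serum at 134, 148 and 144 CPM on soft and 134, 147 and 143 on stiff substrates, and with PD03 at 12.3 (lowest), 13.9 (median) and 15.5 (highest) on soft and 13.5, 12.7 and 13.2 on stiff. With LIF it stood at 136, 144 and 144 CPM on soft and 138, 129 and 132 on stiff, and with LIF and PD03 at 12.2, 12.1 and 9.92 and at 8.84, 10.8 and 12.2. No PD03 library exceeded 15.5 CPM, and no other library at 48 h on hydrogels was below 129. Pdk1 fell 10.2-fold and 12.3-fold on soft and 10.8-fold and 12.5-fold on stiff substrates, without and with LIF, with log2 values of -3.35, -3.63, -3.43 and -3.64 (SE 0.06 to 0.08) and a largest edgeR adjusted p of 1.08e-37. It was number 99, 104, 117 and 97 among all 17702 genes in order of the most negative log2 change. The other members at this step moved little. Pdk3 fell with LIF, by 0.30 on soft and 0.20 on stiff substrates. Of the PDH subunits, Pdha1 rose without LIF by 0.20 and 0.15, and Pdhb fell by 0.15 on soft without LIF and by 0.19 and 0.25 on stiff.

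**Figure D4:**
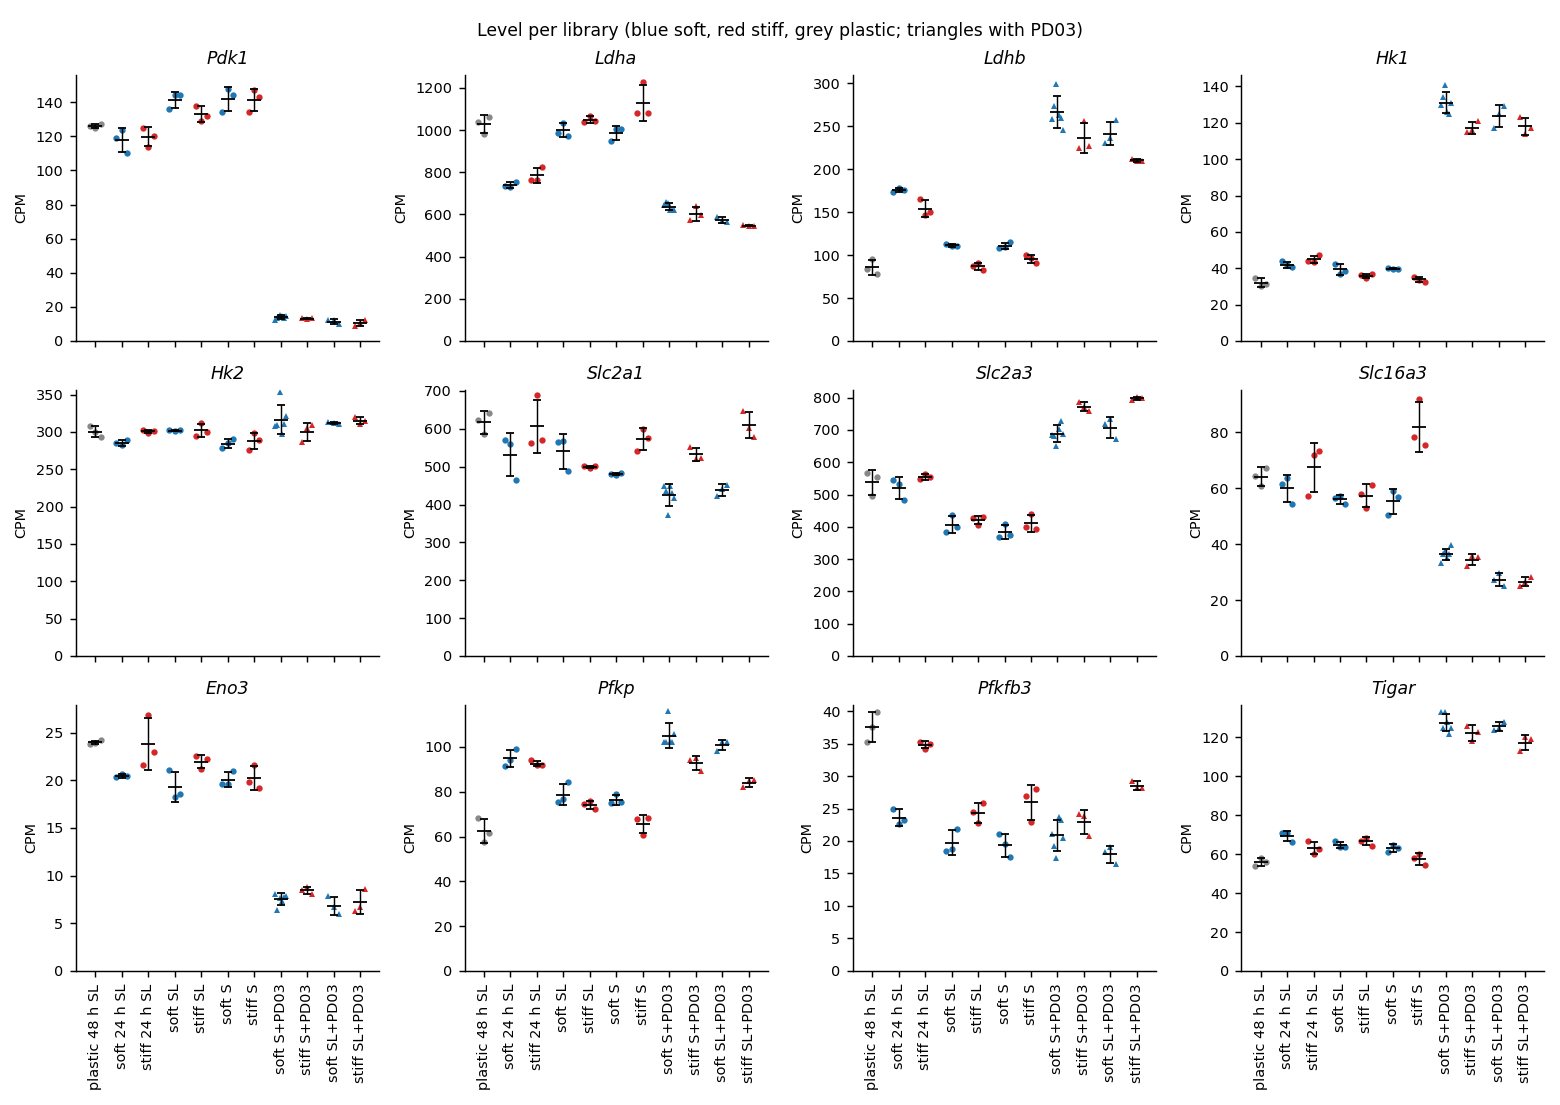
CPM in each library (points; blue soft, red stiff, grey plastic, triangles with PD03) for 12 members, by group, with the mean ± SD as black bars; S is serum and SL serum + LIF. PD03 groups are lower for Pdk1, Ldha, Slc16a3 and Eno3 and higher for Hk1, Ldhb, Tigar and Slc2a3, with no overlap among 48 h hydrogel libraries.

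Markers of cell state moved with PD03. The pluripotency markers summed to 3815 to 4442 CPM with PD03 and to 2630 to 3239 without it. They did not move alike. In stiff serum + LIF, adding PD03 took mean Nanog from 222 to 795 CPM, Sall4 from 990 to 1327 and Esrrb from 327 to 378. Sox2 gave 279 and 283 CPM there, Pou5f1 596 and 583 and Zfp42 511 and 481. These differed between comparisons. In soft serum + LIF, adding PD03 took mean Sox2 from 294 to 339 CPM, Pou5f1 from 590 to 664 and Zfp42 from 562 to 549. In stiff serum Zfp42 went from 430 to 502 CPM. The markers of primitive endoderm, a lineage beside the epiblast, summed to 78.9 to 136 CPM with PD03 and 42.0 to 63.8 without. Dab2 was at 19.5 to 118 CPM. Of the 6 primitive endoderm markers 1 to 2 rose and 2 to 3 fell. The fibroblast sum was 34 to 99.4 CPM with PD03 and 25.2 to 61.5 on hydrogels without it. Of 7 tested fibroblast markers of 8, 3 to 4 rose and 2 fell. Col1a1 rose and Thy1 fell in each comparison, by log2 0.99 to 1.81 and by 1.88 to 2.12. The part of these in the PD03 results was not tested.

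Other lists of the pathway were read beside the members. In the 4 PD03 comparisons 27.8% to 29% of all genes were called higher and 26.6% to 28.5% lower, and each count stands against these shares. Among 11 genes of pyruvate entry into the mitochondrion, 4 to 5 rose and 5 fell with PD03. The kinase Pdk2, related to Pdk1, rose by log2 0.93 to 1.26 over the 4 comparisons, from 6.75 to 9.53 CPM at 48 h on hydrogels to 14.4 to 20.5. The PDH phosphatase Pdp2 rose by 0.88 to 1.06, and the mitochondrial pyruvate carrier subunits Mpc1 and Mpc2 by 0.91 to 1.03 and by 0.71 to 0.79. Other genes of this list went the other way. With PD03 added to serum, mean Dlat went from 62.3 to 52.4 CPM on soft and from 66.9 to 49.4 on stiff. Dld went from 98.0 to 79.2 and from 102 to 78.6 CPM, and the PDH phosphatase Pdp1 from 6.22 to 3.54 and from 5.72 to 3.13. Of 4 tested gluconeogenesis genes of 6, 2 to 3 rose. G6pc3 fell on stiff without LIF, by log2 0.44, and was not called in the other PD03 comparisons. Fbp2, a phosphatase that reverses the phosphofructokinase step, stood at 2.21 to 4.69 CPM without and at 23.4 to 30.1 CPM with PD03 in the 48 h hydrogel libraries, a log2 rise of 2.77 to 3.19. Pck2, the mitochondrial enzyme that makes phosphoenolpyruvate, rose by 1.76 to 1.95. In the pentose phosphate pathway, 4 to 5 of 8 genes rose and 2 to 3 fell. G6pdx, its entry enzyme, fell by 0.89 to 1.12, while the reticulum-located H6pd rose by 0.79 to 1.19.

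Of 15 tested HIF targets outside the pathway of 16, 8 to 9 rose and 1 to 2 fell with PD03, beside the shares of all genes given for the other lists, with medians between 0.32 and 0.37. Vegfa, the vascular growth factor, stood at 10 to 14.4 CPM without and at 57.8 to 79.9 CPM with PD03, a log2 rise of 2.38 to 2.74. Ndrg1, a stress-induced gene, rose by 1.47 to 1.93 and the collagen hydroxylase P4ha2 by 0.48 to 1.09. Egln3, a prolyl hydroxylase that marks HIF for destruction, fell by 1.79 to 2.22, from 20.7 to 27.5 CPM down to 3.27 to 7.30. Of 12 regulators of the pathway, 5 rose and 7 fell in each of the 4 comparisons. Myc, a transcription factor that activates many glycolytic genes, stood at 244 to 333 CPM without and 39.2 to 49.8 with PD03, a log2 fall of 2.63 to 2.94. Txnip, which restrains glucose uptake, fell by 0.80 to 1.14, and Prkaa2, a catalytic subunit of the energy sensor AMPK, rose by 1.14 to 1.36. Other isoforms of pathway enzymes, 19 tested of 27, were mostly not called, with 2 to 4 higher and 2 to 4 lower. Among them the transporter Slc2a8 rose by 0.54 to 1.08 and Gpd2, the mitochondrial glycerol phosphate dehydrogenase, fell by 0.34 to 0.51.

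Substrate stiffness gave smaller differences, with no member beyond 2-fold. At 24 h in serum + LIF, where both substrates were run in the first pool, 1 member differed, against 3.55% of all genes (1.03% higher on soft, 2.52% lower). This was Pfkfb3, the kinase-phosphatase that most strongly favours making the activator of phosphofructokinase. It stood at 25, 22.6 and 23.2 CPM on soft and at 35.3, 34.2 and 35 on stiff substrates. The groups did not overlap. It was lower on soft by 0.56 ± 0.09 (SE) on the log2 scale, with an edgeR adjusted p of 1.64e-05, and was called without each of the 6 libraries in turn. The number of members called was 2 without stiff 24 h library 1. In the serum + LIF groups at 48 h, 1 member differed, against 0.780% of all genes (0.446% higher on soft, 0.333% lower). It was Ldhb, higher on soft by log2 0.35 ± 0.06 (edgeR adjusted p = 0.00172). At 48 h the substrates were almost wholly in different pools, so substrate and pool cannot be told apart there beyond what the 45 pool assignments allow. With a pool term Ldhb gave 0.19 to 0.55 and was called in 11 of 45. The fibroblast markers summed to 26.7 to 39.1 CPM on soft and 54.3 to 61.5 on stiff substrates at 24 h. In serum + LIF at 48 h they summed to 28.3 to 32.8 and 35.8 to 43.3 CPM. At 24 h mean Col1a1 was 17.2 CPM on soft and 39.4 on stiff, and Col1a2 2.89 and 4.71. Thy1 was at 7.38 and 7.71 CPM there, and Pdgfrb at 3.46 and 4.03. The part of these markers was not tested.

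In serum at 48 h, 11 of 32 members differed between soft and stiff, or 34.4%, against 4.85% of all genes (2.08% higher on soft, 2.77% lower). On soft substrates 3 were higher, Hk1 by log2 0.23, Pfkp by 0.22 and Ldhb by 0.20. The 8 lower were the transporter Slc2a1 by 0.25, Pfkl by 0.29, Pfkfb3 by 0.43, Tpi1 by 0.30, Gapdh by 0.24, Eno1 by 0.24, Ldha by 0.19 and Slc16a3 by 0.56. The serum libraries of Slc16a3 and Pfkl given above did not overlap between substrates, and those of Slc2a1 stood at 480, 479 and 484 CPM on soft and 542, 600 and 577 on stiff. The median over the members was -0.05, against 0.00 over all genes. The pool term left 2 to 8 members called. Slc16a3 was called in all 45 assignments, at -0.69 to -0.44, Tpi1 in 39, Pfkl in 21, and the others in 3 to 15. Leaving out 1 library gave 5 to 10 members, with 5 without stiff serum library 2, 6 without soft serum library 2 and 7 without soft serum library 1. Ldhb was lost whichever library was left out, and Hk1 without stiff library 3 or any soft library. Gapdh was lost without stiff library 2, Eno1 and Pfkp without stiff library 2 or soft library 2, Ldha without stiff library 2 or soft library 1, and Slc2a1 without any of these 3. The fibroblast markers summed to 25.2 to 32.1 CPM on soft and 51.9 to 57.1 on stiff serum substrates and the pluripotency markers to 2996 to 3089 and 2630 to 2848, and their part was not tested.

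With PD03, 5 members differed between substrates without LIF (3 higher on soft, 2 lower) and 5 with LIF (2 higher, 3 lower). Of all genes, 5.55% differed without LIF (2.13% higher, 3.42% lower) and 7.61% with LIF (2.80% higher, 4.82% lower). Slc2a1 stood at 373 (lowest), 433 (median) and 450 (highest) CPM on soft and 553, 520 and 524 on stiff in serum + PD03. It was lower on soft by 0.32 ± 0.06, a call that did not hold in every pool assignment. In serum + LIF + PD03, where its soft libraries stood at 422, 440 and 452 CPM against 648, 603 and 579 on stiff, it was lower by 0.48 ± 0.07 and was called in all 45 pool assignments. Soft and stiff libraries did not overlap in either medium. Pfkfb3 was lower on soft with LIF, at 18.3, 19.1 and 16.5 CPM against 29.3, 28.1 and 28.2, by 0.66 ± 0.09, and was called in 42 of 45. Without LIF, Pfkfb3 gave -0.14 (edgeR adjusted p = 0.393). The other calls were small. Pfkp was higher on soft by 0.18 and 0.26 and Ldhb by 0.17 and 0.20, without and with LIF, Slc2a3 was lower by 0.17 in both, and Hk1 was higher by 0.16 without LIF. With a pool term each of these was called in at most 15 of 45 assignments, and Slc2a3 with LIF in none. Without LIF, leaving out stiff library 1 left 1 of the 5 members called, soft library 3 left 2 and stiff library 3 left 3. With LIF, leaving out any stiff library or soft library 3 left 3. The fibroblast sums were 36.1 to 48.4 CPM on soft against 74.6 to 84.2 on stiff without LIF. With LIF they were 34 to 48.9 against 92.8 to 99.4 CPM. Mean Col1a1 was 29.8 CPM on soft and 62.8 on stiff without LIF, and 28.5 and 76.4 with it. Thy1 was at 2.89 and 2.80 CPM without LIF and at 2.64 and 2.74 with it. The primitive endoderm sums were 78.9 to 101 against 114 to 120 CPM without LIF and 95.8 to 107 against 126 to 136 with it, and the pluripotency sums 4230 to 4419 against 3919 to 3977 and 4280 to 4442 against 3815 to 3892. The part of these was not tested.

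**Figure D5:**
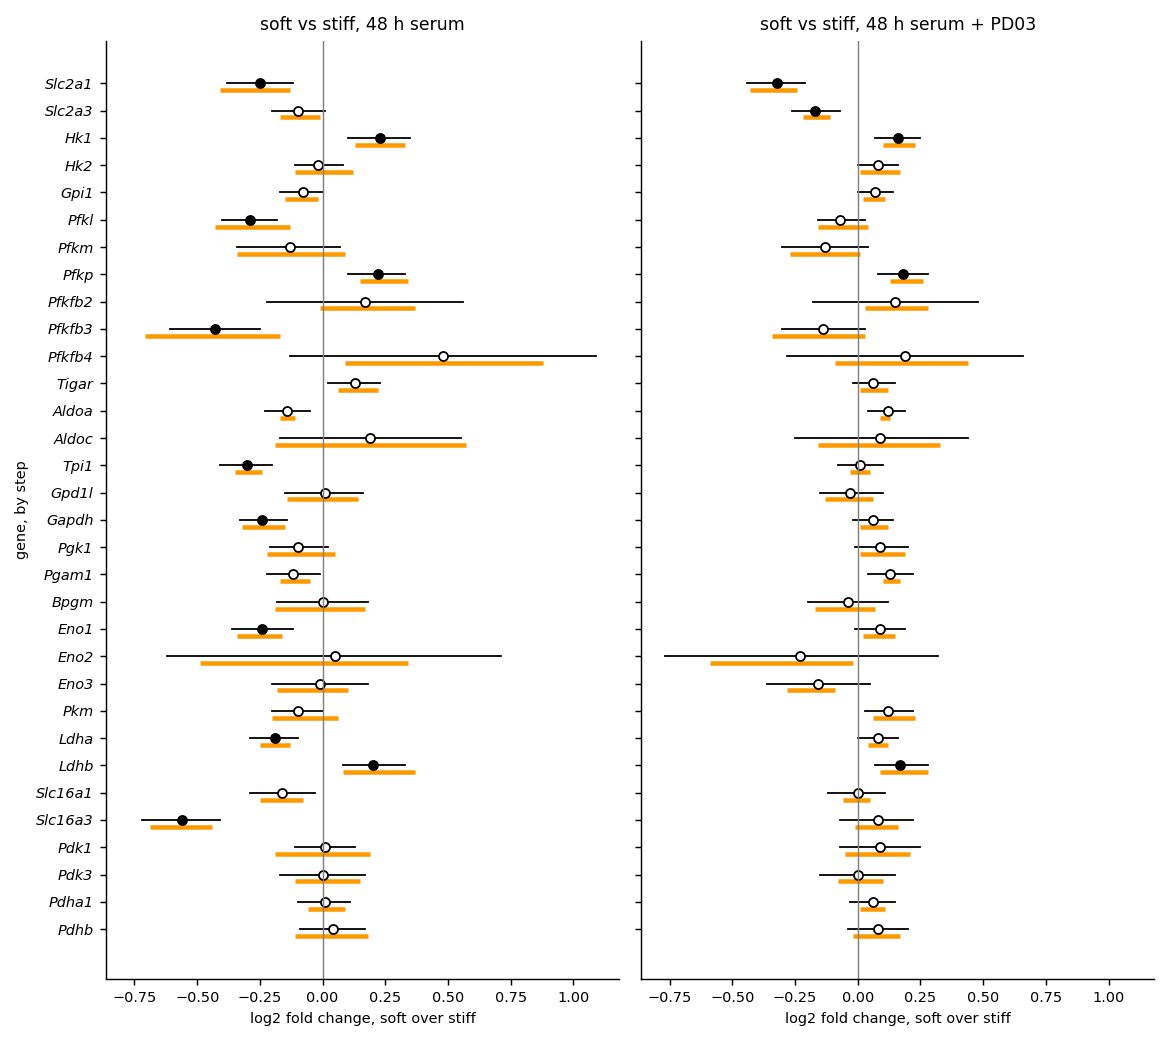
Soft minus stiff log2 fold change of each member at 48 h in serum and in serum + PD03. Black points have 95% intervals and are filled where past the threshold, and orange bars give the range over 45 pool assignments. In serum, Slc16a3 is lower on soft over its whole orange range, while most values have wide orange ranges.

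Ldhb was the only member called in 4 of the 5 soft against stiff comparisons, higher on soft each time, and its value at 24 h was 0.19 (edgeR adjusted p = 0.0734). Its calls were all at 48 h, where substrate and pool nearly coincide, and a pool term lost each of them in most assignments. The serum call was also lost whichever library was left out. Pdk1, which moved most with PD03, showed no called difference between substrates. Its 95% intervals for soft against stiff were -0.14 to 0.10 at 24 h, -0.04 to 0.21 in serum + LIF, -0.11 to 0.13 in serum, -0.07 to 0.25 in serum + PD03 and -0.09 to 0.29 in serum + LIF + PD03.

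Against plastic, Pfkfb3 gave the largest change of any member on each hydrogel. The soft and stiff comparisons share the 3 plastic libraries, so their calls are not independent of each other. Soft differed in 8 members (5 higher, 3 lower), against 11.8% of all genes (5.29% higher, 6.47% lower). Stiff differed in 5 (2 higher, 3 lower), against 5.54% (1.95% higher, 3.59% lower). Pfkfb3 stood at 35.2, 37.6 and 39.8 CPM on plastic, 18.4, 18.8 and 21.9 on soft and 24.5, 22.7 and 25.8 on stiff hydrogels. The 3 groups did not overlap. Pfkfb3 was lower by 0.93 ± 0.09 on soft and by 0.62 ± 0.09 on stiff, and with a pool term it was called in 38 and 45 of 45 assignments. Slc2a3, at 567, 494 and 554 CPM on plastic, was lower by 0.41 on soft and 0.35 on stiff. On stiff, Slc2a1 was lower by 0.30, and Pfkp and Tigar were higher by 0.24 each. On soft, Hk1, Ldhb, Aldoa, Pfkp and Tigar were higher by 0.29, 0.37, 0.16, 0.33 and 0.21, and Eno3 was lower by 0.31. With the pool term 0 to 4 members stayed past the threshold on soft and 2 to 3 on stiff. The soft call of Eno3 was lost without any plastic library, soft library 2 or soft library 3, that of Aldoa without plastic library 1 or soft library 2, and the stiff call of Pfkp without plastic library 2. The fibroblast markers summed to 73.3 to 85.3 CPM on plastic, 28.3 to 32.8 on soft and 35.8 to 43.3 on stiff hydrogels. Mean Col1a1 was 57.9, 13.5 and 21.7 CPM in that order, while Thy1 was lowest on plastic, at 7.15, 11.4 and 11.5. The part of these markers was not tested.

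LIF changed few members. On soft substrates without PD03 no member passed the edgeR test, nor the DESeq2 test, and 7 had an unadjusted p under 0.05. Of all genes, 0.0169% passed. Slc16a3 was called in the other 3 comparisons. It fell with LIF by 0.41 ± 0.08 on soft with PD03, where it was the 1 member called, against 0.107% of all genes (0.0395% higher, 0.0678% lower). That call was lost without soft serum + LIF + PD03 library 1 or 3. It fell by 0.51 ± 0.08 on stiff without PD03, from 78.3, 91.9 and 75.4 CPM to 57.9, 52.9 and 61.2, with no overlap, and this was called without each of the 6 libraries. There 4 members changed, against 1.41% of all genes (0.712% higher, 0.695% lower), with Tigar higher by 0.21 and Tpi1 and Gapdh lower by 0.21 each. The calls numbered 1 without stiff serum + LIF library 1, and 2 without stiff serum + LIF library 3 or stiff serum library 2. On stiff substrates with PD03, Slc16a3 fell by 0.37 ± 0.09 and Pfkl by 0.22 ± 0.05, against 0.514% of all genes (0.294% higher, 0.220% lower). The call of Pfkl was lost whichever of the 6 libraries was left out, and that of Slc16a3 without any of them except stiff serum + PD03 library 1.

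Between 24 h and 48 h in serum + LIF the LDH subunits again moved apart. Ldha rose from 734, 730 and 756 CPM to 988, 1035 and 971 on soft and from 765, 762 and 827 to 1038, 1069 and 1041 on stiff substrates, by log2 0.43 ± 0.05 and 0.42 ± 0.05. Ldhb fell from 173, 178 and 176 CPM to 113, 111 and 110 on soft and from 165, 147 and 150 to 87.3, 91.3 and 83.1 on stiff substrates, by 0.66 ± 0.06 and 0.82 ± 0.06. The times did not overlap for either gene. On soft 14 members changed (9 higher, 5 lower) and on stiff 12 (5 higher, 7 lower), or 43.8% and 37.5%, against 24.4% of all genes on soft (12.9% higher, 11.4% lower) and 25.6% on stiff (12.6% higher, 13% lower). With plain library sizes the higher share of all calls on soft was 32.4% in place of 53.1%. Slc16a1 rose by 0.38 and 0.40, Gpd1l by 0.52 and 0.46 and Pdk1 by 0.26 and 0.16, while Slc2a3 fell by 0.36 and 0.40 and Pfkp by 0.27 and 0.32, on soft and stiff substrates. On soft, Pgk1, Pgam1, Eno1, Pkm and Aldoa of the lower and middle pathway also rose, by 0.15 to 0.31, and Eno2, at a mean of 1.58 CPM, fell by 0.92 ± 0.32. On stiff, Hk1 fell by 0.32, Slc2a1 by 0.28, Pfkfb3 by 0.51 and Slc16a3 by 0.23, and Pfkl rose by 0.16. The soft libraries of both times were in different pools, and the pool term left 2 to 7 of 14 members called, with Ldha in all 45 assignments, Ldhb in 43 and Pdk1 in 2. On stiff it left 8 to 10 of 12, with Ldha, Ldhb, Slc2a3, Slc16a1 and Gpd1l in all 45. The stiff call of Pdk1 was lost without any library but stiff 24 h library 1, that of Slc16a3 without stiff 24 h library 2 or 3 or stiff serum + LIF library 1 or 2, that of Pfkl without stiff 24 h library 1 or 3 or stiff serum + LIF library 1 or 2, and that of Slc2a1 without stiff 24 h library 2. Pfkfb3 on soft fell by 0.26 but gave between -0.69 and 0.14 with the pool term, so its direction was not settled.

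Interaction fits tested whether an effect depended on a second condition. For PD03 against stiffness without LIF, 6 members passed, against 0.797% of all genes. All 6 were positive, so that these genes fell less or rose more with PD03 on soft than on stiff substrates. The largest was Slc16a3 at 0.64 ± 0.11 (edgeR adjusted p = 0.000340), called without each of the 15 libraries in turn. Gapdh gave 0.30 and Tpi1 0.31. The number called was 1 without stiff serum library 2 or soft serum library 2, and 2 without stiff serum + PD03 library 1 or 3. In stiff serum library 2, Slc16a3 at 91.9 CPM and Ldha at 1229 CPM were the highest of all libraries. For LIF against stiffness without PD03, Gapdh at 0.32 and Slc16a3 at 0.52 passed, against 0.0847% of all genes, but with a pool term 0 to 1 member did. The count was 2 without stiff serum library 1 or 3, and was 6 without soft serum + LIF library 3, 1 without stiff serum + LIF library 3 or soft serum library 2, and 0 without any of the other 7. For LIF against PD03 on stiff substrates, Slc2a1 at 0.39 and Pfkp at -0.32 passed, against 1.09% of all genes. The count there was 0 without stiff serum + LIF + PD03 library 1, stiff serum library 2 or stiff serum + PD03 library 2, and 1 without any other library except stiff serum library 3. No member passed for LIF against PD03 on soft, for LIF against stiffness with PD03 or for time against stiffness, by edgeR, where 10, 2 and 6 had an unadjusted p under 0.05 and all genes gave 0.0226%, 0.00565% and 0.254%. DESeq2 called 1, 0 and 0. By edgeR, 1 member passed for LIF against stiffness with PD03 without soft serum + PD03 library 3, and 1 for time against stiffness without soft serum + LIF library 3.

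Some members share sequence with copies elsewhere, which can move reads between them. Of 50-base stretches, 53.9% in Pgk1, 36.2% in Pgam1, 26% in Eno1, 25.8% in Pkm, 25.1% in Gapdh and 21% in Ldhb also occurred in another gene. Eno1b, a near-identical copy of Eno1, was counted at a mean of 332 CPM, or 25.1% of Eno1. With both summed, the PD03 log2 changes were -0.28 and -0.42 on soft and -0.60 and -0.51 on stiff substrates, close to those of Eno1 alone. Between 24 h and 48 h on stiff substrates Eno1 alone gave -0.02 (edgeR adjusted p = 0.890) and the sum gave 0.19 (edgeR adjusted p = 0.000801). The other named copies of Aldoa, Gapdh, Ldha, Pgam1 and Pgk1 were each at 1.04% of their parent or less. The genes sharing most with Gapdh (Gm7336, 24.6%), Ldhb (Gm5514, 21%) and Pkm (Gm49759, 12.1%) were not among these copies. A low count in a copy also does not show that its parent lost few reads, as handling of multimapped reads is not given. Pdha1 overlapped the antisense gene Map3k15 over 16.1% of its exon bases and Gpi1 overlapped one over 11.5%, and whether counting used strand is not given in the sources used here.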

How the data were processed

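RNA was sequenced from 36 mESC libraries prepared with a NuGen kit. The authors aligned reads with STAR 2.5.2a to mm10 and counted them per gene with HTSeq, per the labels and the study's methods, and the deposited table holds raw counts per gene. Handling of multimapped reads and strand is not given in the sources used here. Members and gene lists were chosen with earlier results of these data known.

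Counts were fitted in edgeR 4.0.16 (R 4.3.3) in 1 quasi-likelihood model with 11 group coefficients, after filterByExpr kept 17702 of 49671 genes (99.9% of counts) and TMM factors of 0.963 to 1.047. P-values were adjusted over all tested genes by Benjamini-Hochberg, with a threshold of 0.05, over 24 comparisons of which 7 were interactions. Intervals are 95%. Library totals of 10405696 to 26635239 set the precision. No replicates agreed within sampling noise (45 pairs, chi-square per gene 2.22 to 13.4). On simulated data for PD03 on stiff with LIF (17175 genes), the fit recovered 92.5% of genes changed 1.5-fold and 100% changed 2-fold or 4-fold. Only well-counted genes were changed there, and all others were left unchanged. The recovery does not cover low members such as Eno2, or the real comparison, where 56.2% of genes were called.

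Values per library were to be printed for up to 10 members called with 1 sign in all 4 PD03 comparisons, in order of mean absolute log2 change, and for those called in 2 or more substrate or LIF comparisons, with at most 4 genes per other list by largest change at a mean of at least 5 CPM, and at most 3 per interaction by p. Alternatives were DESeq2 1.42.0, its size factors, plain library sizes, no filter, only the groups compared, a pool term over 45 assignments, leaving out each library, and Eno1 summed with Eno1b, the last chosen after seeing the data. Beyond the limit per list, Dlat, Dld and Pdp1 were named to show genes with lower means under PD03. Promoter windows are from RefSeq, matched by symbol. Pools are those named in the labels.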

Additional observations from a re-analysis of the deposited data

Results flagged for a closer look

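The following results stood out because an effect differed between conditions by the edgeR interaction test, given as log2 differences. In serum without LIF, PD03 gave a higher change on soft than on stiff substrates for Aldoa (0.25), Tpi1 (0.31), Gapdh (0.30), Eno1 (0.33), Ldha (0.27) and Slc16a3 (0.64). Leaving out stiff serum library 2 or soft serum library 2 left 1 of these past the threshold. With LIF, the PD03 change of Slc2a1 was lower on soft than on stiff substrates by -0.59, called in all 12 fits without 1 library and in all 45 pool assignments. The LIF change without PD03 was higher on soft than on stiff substrates for Gapdh (0.32) and Slc16a3 (0.52), and no pool assignment kept Gapdh. On stiff substrates, the PD03 change with LIF differed from the PD03 change without LIF for Slc2a1 (0.39) and Pfkp (-0.32).

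Other results were set apart by 1 library far from its group by Dixon's test, which chance gives in about 1 in 20 groups. All 3 were in soft serum + PD03 (n = 6). Library 3 was highest for Pfkp, at 116 CPM against 102 to 106 in the others, and for Pkm, at 2332 CPM against 1896 to 1951. Library 1 was lowest for Eno2, at 0.918 CPM against 1.44 to 1.74.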

How the results depend on the processing

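Limits are given as the number of members past the threshold. No paired analysis was possible because the columns of the count table carry no replicate numbers. The PD03 counts stayed within 1.5 times under every alternative run. DESeq2 gave 2 for soft against stiff at 24 h, 10 for stiffness by PD03 without LIF, 5 for stiffness by LIF without PD03 and 1 for LIF by PD03 on soft. The calls over all genes moved too, in the same order from 628 to 671, 141 to 338, 15 to 122 and 4 to 23. Its size factors in edgeR gave 1 for LIF on stiff with PD03. Plain library sizes gave 2 at 24 h, 2 for soft against stiff in serum + PD03, 13 for soft against plastic and 1 for stiffness by LIF without PD03. They gave 673, 930, 2455 and 18 calls over all genes there, against 628, 982, 2083 and 15 in the main fit. They also moved the share of higher calls among all genes from 29% to 43.1% at 24 h, 57.2% to 43.9% in serum + LIF, 42.9% to 56.8% in serum, 38.4% to 26.1% in serum + PD03, 45.0% to 61.1% for soft and 35.2% to 64.5% for stiff against plastic, 50.6% to 63.5% and 57.1% to 45.7% for LIF on stiff without and with PD03, 53.1% to 32.4% for time on soft, 51.1% to 23.1% for stiffness by PD03 without LIF, 73.3% to 27.8% for stiffness by LIF without PD03 (85.7% with the size factors), 61.1% to 44.2% for LIF by PD03 on stiff and 88.9% to 75.0% for stiffness by time. No filter gave 2 at 24 h, 3 in serum + PD03, 6 and 1 for stiffness by LIF without and with PD03, 2 and 1 for LIF by PD03 on soft and stiff, and 2 for stiffness by time. Over all genes the calls went from 628 to 606 at 24 h and from 982 to 869 in serum + PD03. They went from 15 to 173 and 1 to 21 for stiffness by LIF, 4 to 41 and 193 to 243 for LIF by PD03, and 45 to 189 for stiffness by time. Fitting only the groups compared gave 1 and 6 for LIF on stiff without and with PD03 and 0 for stiffness by LIF without PD03. Over all genes it gave 182, 417 and 1 there, against 249, 91 and 15 in the main fit.

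The pool term gave, from its lowest to its highest count, up to 2 at 24 h, 0 to 2 for soft against stiff in serum + LIF, from 2 in serum, from 0 in serum + PD03 and from 1 in serum + LIF + PD03. Over all genes it gave, in the same order, 607 to 640, 0 to 41, 173 to 384, 276 to 678 and 246 to 724. The main fit gave 628, 138, 858, 982 and 1348. Against plastic the pool term gave 0 to 4 on soft and 2 to 3 on stiff, with 126 to 445 and 225 to 431 over all genes, against 2083 and 981. For LIF it gave from 0 on soft with PD03 and from 1 on stiff without and with PD03. Over all genes these were 7 to 19, 109 to 204 and 79 to 98, against 19, 249 and 91. For time on soft the pool term gave 2 to 7, with 345 to 813 over all genes against 4315 in the main fit. For the interactions it gave from 3 for stiffness by PD03 without LIF, 0 to 1 for stiffness by LIF without PD03, up to 1 with PD03, from 0 for LIF by PD03 on stiff, and up to 1 for stiffness by time. Over all genes these were 76 to 124, 0 to 19, 0 to 4, 87 to 182 and 0 to 42, against 141, 15, 1, 193 and 45. Pfkfb3 between 24 h and 48 h on soft turned from -0.26 to 0.14 at its highest.

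Without 1 library the count ran from 1 to 2 at 24 h, 5 to 10 in serum, 1 to 5 in serum + PD03 and 3 to 4 in serum + LIF + PD03. For LIF it ran from 0 to 1 on soft with PD03, 1 to 3 on stiff without and 0 to 1 on stiff with PD03. For interactions it ran from 1 to 6 for stiffness by PD03 without LIF, 0 to 6 for stiffness by LIF without PD03 and 0 to 1 with it, 0 to 2 for LIF by PD03 on stiff, and 0 to 1 for stiffness by time. The calls over all genes in these fits are not given here, so a change of the whole fit cannot be told apart from one of the members. Of the single-gene calls, 2 were lost under DESeq2 and 169 kept. The losses were 2 under its size factors, 9 with plain library sizes, 15 with no filter, 15 with only the groups compared and none for Eno1 summed with Eno1b. Over the fits without 1 library, a call was kept 1019 times and lost 184 times. At the lowest and highest values over the pool assignments, calls were kept 263 times, lost 78 times and reversed in sign 1 time. The cause was not tested. Depth limits Eno2, Pfkfb2 and Pfkfb4, with means of 1.58, 3.12 and 1.80 CPM.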
